A study of Homo sapiens with 16 samples.

Results

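The OAS family consists of the genes for the 2'-5'-oligoadenylate synthetases OAS1, OAS2 and OAS3 and for their relative OASL. Its members were taken from the count table by gene symbol, and all 4 were found among 59428 genes. Their RNA was followed in OVCAR3, an ovarian carcinoma cell line with intact BRCA1, and in UWB1.289, an ovarian carcinoma line with a deleterious BRCA1 mutation. Each line received the PARP inhibitor olaparib or its solvent DMSO for 96 h, at 7.5 µM olaparib in OVCAR3 and at 3.5 µM in UWB1.289, the doses chosen as the IC50 of each line. Each of the 4 groups of line and treatment held 4 replicates, which gives 16 libraries, and p-values measure the spread between these replicates. Each BRCA1 status is represented by 1 cell line, and the lines also differed in medium and in dose, so these cannot be told apart in a comparison between the lines.

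OAS enzymes bind double-stranded RNA and then make 2-5A, short chains of adenosine joined by 2'-5' bonds, which set off the breakdown of RNA in the cell. OAS1 carries a single catalytic unit, OAS2 carries a tandem pair of OAS units, and OAS3, the longest member, carries a further one. OASL does not make 2-5A and carries ubiquitin-like repeats that enhance signalling by the RNA sensor RIG-I. All of these genes are known as interferon-stimulated genes, whose transcription rises when interferon binds its receptor on the cell.

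OAS1, OAS3 and OAS2 lie side by side on the plus strand of chromosome 12 in the hg38 build. OAS1 (ENSG00000089127) spans chr12:112905856-112933219, OAS3 (ENSG00000111331) spans chr12:112938051-112976460 and OAS2 (ENSG00000111335) spans chr12:112978395-113011723. OASL (ENSG00000135114) lies apart from this cluster on the minus strand at chr12:121017763-121039246. An antisense long noncoding RNA gene, ENSG00000257452, lies on the opposite strand from 112907628 to 113017751, which covers OAS3 and OAS2 whole and OAS1 in part. The antisense gene was not found in the count table under this identifier, and the strand setting of the read counting is not given in the sources used here. Gene spans were compared and exons were not, so whether counts of the OAS genes include reads of the antisense gene was not tested.

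The promoters of OAS1 and OAS3 are shown here, as far as RefSeq's table gives them, because motifs of interferon-regulated transcription can be read in them. OAS2 and OASL had no entry. Each line gives the 250 bases before RefSeq's transcription start, 5' to 3' on the plus strand in GRCh38.p14. They lie at chr12:112906712-112906961 for OAS1 and at chr12:112938224-112938473 for OAS3. Both windows fall inside the gene spans given above, which come from another annotation with starts further upstream. Capitals mark matches to 3 motifs that were searched on both strands.
OAS1: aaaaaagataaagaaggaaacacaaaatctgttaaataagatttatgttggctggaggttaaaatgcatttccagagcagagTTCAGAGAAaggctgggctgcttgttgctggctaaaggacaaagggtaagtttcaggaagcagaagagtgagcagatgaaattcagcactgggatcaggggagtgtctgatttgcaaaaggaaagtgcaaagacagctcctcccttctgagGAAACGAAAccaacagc
OAS3: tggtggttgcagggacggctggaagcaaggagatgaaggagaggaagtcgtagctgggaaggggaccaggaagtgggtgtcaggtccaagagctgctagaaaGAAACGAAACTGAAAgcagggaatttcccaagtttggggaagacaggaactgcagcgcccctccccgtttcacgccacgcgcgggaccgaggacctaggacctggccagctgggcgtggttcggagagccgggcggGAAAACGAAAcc

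The core of the interferon-stimulated response element, spelled TTTCNNTTTC or GAAANNGAAA on the other strand, was found in the OAS3 promoter as GAAACTGAAA, which starts 143 bases before the transcription start, and as GAAAACGAAA, which starts 12 bases before it. It was held by 3.57% of the 35116 RefSeq promoter windows of 300 bases (250 before and 50 after the start). The gamma-activated site, spelled TTCNNNGAA, was found in the OAS1 promoter as TTCAGAGAA at 168 bases before the start and was held by 7.66% of all windows. A closer spacing of the same TTTC boxes with 1 base between them, TTTCNTTTC or GAAANGAAA, was added to the search after the sequences had been seen. Its letters were found as GAAACGAAA at 17 bases before the start of OAS1 and at 148 bases before the start of OAS3, where the match overlaps the first response element, and 3.12% of all windows held it. These matches describe letters in the windows and do not show binding.

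Total counts ranged from 5599571 to 7730228 over the 16 libraries. Levels are given as CPM, counts scaled to a common library total with TMM factors over all 16 libraries, and the libraries read 3' ends of transcripts. Of the 6 carcinoma markers PAX8, WT1, EPCAM, KRT8, KRT18 and MUC16, all had counts in OVCAR3, whereas WT1 was at 0 in UWB1.289 with DMSO and had 4 counts over the 4 libraries with olaparib. Their summed level was 3614 to 3900 CPM in OVCAR3 with DMSO and 2087 to 2323 CPM with olaparib. In UWB1.289 it was 6001 to 6532 CPM with DMSO and 4613 to 5640 CPM with olaparib. KRT18 was the largest part of this sum, at 1796 CPM in OVCAR3 and 4203 CPM in UWB1.289 with DMSO. KRT8 and EPCAM were also higher in UWB1.289 with DMSO. PAX8 (445 CPM in OVCAR3 against 287 CPM in UWB1.289) and MUC16 (210 against 36.4 CPM) were lower there, as WT1 was. The 5 markers of other cell types (PTPRC, CD3E, CD68, COL1A1 and PECAM1) summed to 21.5 to 30.7 CPM in OVCAR3 with DMSO, 31.8 to 39.2 CPM with olaparib, 12.4 to 16.1 CPM in UWB1.289 with DMSO and 15.5 to 22.1 CPM with olaparib. COL1A1 made up most of the sum in OVCAR3 (24.4 CPM with DMSO, against 3.81 CPM in UWB1.289), while PTPRC (0.232 against 6.14 CPM), PECAM1 (0 against 3.36 CPM) and CD68 (0.0796 against 0.594 CPM) were higher in UWB1.289 with DMSO, as the OAS genes were. With olaparib in UWB1.289, CD68 stood at 1.64 CPM, PTPRC at 7.89 CPM and PECAM1 at 4.69 CPM. The T cell marker CD3E was at 0 in 3 of the 4 groups and had 1 count in OVCAR3 with DMSO. The part of these markers in the results for the OAS genes was not tested. A gene was called where it passed 3 limits: an adjusted p (edgeR quasi-likelihood test, Benjamini-Hochberg over all genes tested) below 0.1, a difference beyond 2-fold, and more than 10 normalized counts on average across the libraries in the fit.

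The first question was how UWB1.289 responded to olaparib. OAS1, OAS2 and OAS3 passed the filter on low counts in both groups and all 3 were called up, where 1.93% of the 12748 genes tested were called up. OASL was called up as well, but it passed the filter through its olaparib libraries, since only 2 of its 4 DMSO libraries reached the cutoff of 1.57 CPM, so its call is not counted with the others. OAS2 rose 10.2-fold, OASL 8.24-fold, OAS1 5.66-fold and OAS3 5.58-fold, and in each gene every olaparib library lay above every DMSO library, a pattern seen for 7.73% of the genes tested. As these are bulk libraries, more RNA per cell and more cells that express the genes cannot be told apart.

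OAS2, which carries the tandem pair of OAS units, was measured at 15.5, 19.9, 13.2 and 19.0 CPM in the DMSO replicates 1 to 4 of UWB1.289 and at 182, 160, 179 and 171 CPM in the olaparib replicates. The groups were far apart relative to the spread within them, with 16.9 ± 3.08 CPM against 173 ± 9.76 CPM (SD, n = 4). The log2 fold change was 3.35 (SE 0.113, 95% interval 3.12 to 3.59, edgeR adjusted p = 6.57e-15), which ranked 12 of the 12748 genes from the largest increase down.

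OASL, the member without synthetase activity, had the fewest reads of the family in UWB1.289, with 9, 11, 12 and 10 reads in the DMSO libraries and 98, 55, 78 and 94 reads in the olaparib libraries. Its level was 1.36, 1.84, 1.92 and 1.32 CPM with DMSO and 16.2, 9.79, 12.5 and 14.4 CPM with olaparib. The lowest olaparib library, replicate 2, still lay well above the highest DMSO library. The log2 fold change was 3.04 with a wider error than for the other members (SE 0.248, 95% interval 2.53 to 3.56, edgeR adjusted p = 7.86e-09), and its average normalized count of 47.2 was the lowest of the 4.

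OAS1 stood at 27.4, 27.7, 19.8 and 30.8 CPM with DMSO and at 147, 137, 158 and 157 CPM with olaparib. In OAS1 the DMSO replicate 3 was the lowest library, and no olaparib library came near the DMSO range. The log2 fold change of OAS1 was 2.50 (SE 0.112, 95% interval 2.27 to 2.73, edgeR adjusted p = 2.71e-13).

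OAS3, the synthetase with the most OAS units, stood at 47.3, 62.6, 46.1 and 58.4 CPM with DMSO and at 311, 278, 292 and 314 CPM with olaparib. The log2 fold change of OAS3 was 2.48 (SE 0.0987, 95% interval 2.28 to 2.69, edgeR adjusted p = 3.64e-14), and its interval overlapped that of OAS1. The intervals of OAS1 and OAS3 ended below the interval of OAS2, whereas that of OASL overlapped both those of OAS2 and of the other members. The difference in response between members was not tested. The log2 fold changes of the members passing in both groups ran from 2.48 to 3.35, and the median of all genes tested was -0.0044.

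**Figure D1:**
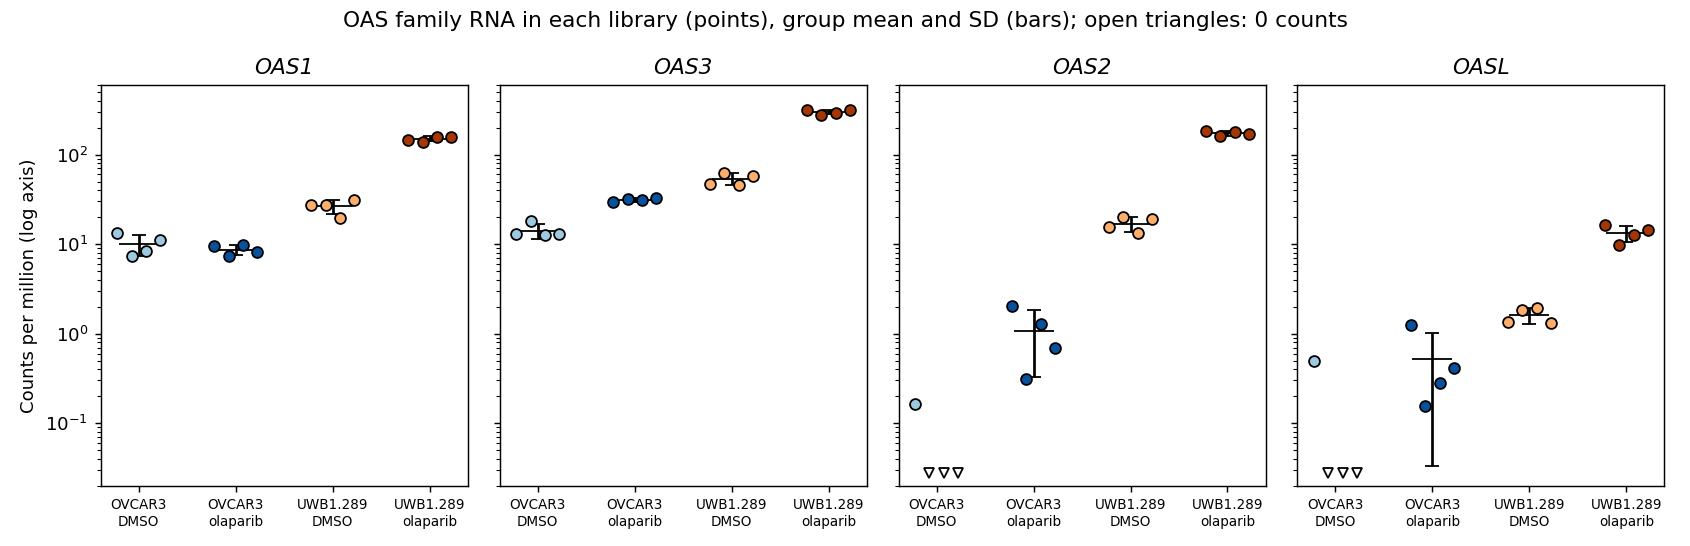
CPM on a log axis for each of the 4 OAS members (panels) in the 4 libraries of each group (points), with bars at the group mean ± SD where every library had reads; open triangles at the bottom mark libraries with 0 counts. The UWB1.289 olaparib libraries lie above all others in each panel, OAS3 differs between the OVCAR3 groups without overlap, and OAS2 and OASL have reads in only 1 of the 4 OVCAR3 DMSO libraries.

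The same question was asked for OVCAR3, where the response differed from member to member. OAS3 rose 2.23-fold, OAS1 was not called, and OAS2 and OASL had too few reads to pass edgeR's filter on low counts. The count was thus 1 member called of 2 tested, where 2.90% of the 13031 genes tested were called up. In OAS3 the olaparib range began above the end of the DMSO range, which was the case for 12.4% of the genes tested. The same held for OAS2, which was not among the genes tested.

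OAS3 was measured at 12.9, 18.0, 12.7 and 12.9 CPM in the DMSO replicates 1 to 4 and at 29.7, 32.0, 30.7 and 33.2 CPM in the olaparib replicates. The DMSO replicate 2 stood above the other DMSO libraries and still below every olaparib library. The log2 fold change was 1.16 (SE 0.133, 95% interval 0.88 to 1.44, edgeR adjusted p = 2.32e-06), and the interval reached below a 2-fold change. OAS3 ranked 301 of 13031 genes in OVCAR3 and 30 of 12748 in UWB1.289.

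OAS1 was measured at 13.2, 7.35, 8.40 and 11.2 CPM with DMSO and at 9.48, 7.34, 9.82 and 8.09 CPM with olaparib. The groups overlapped, with the highest and the second lowest of the 8 values both among the DMSO libraries. The log2 difference was -0.21 (SE 0.200, 95% interval -0.62 to 0.21, edgeR adjusted p = 0.495), so a change was not detectable and an increase by more than 1.16-fold lay outside the interval.

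OAS2 had 1, 0, 0 and 0 reads in the DMSO libraries and 13, 2, 9 and 5 reads in the olaparib libraries of OVCAR3. All olaparib libraries had reads, against 1 of the DMSO libraries. Scaled for depth, the summed counts of 29 and 1 gave a ratio of 27.4 with an exact 95% counting interval of 4.54 to 1118, which covers counting error only. Fits without that filter gave a log2 fold change of 4.51 (DESeq2 adjusted p = 0.00526) or 4.23 (adjusted p = 0.00114 in edgeR), with an average count under the limit of 10. OASL had 3, 0, 0 and 0 reads with DMSO and 8, 1, 2 and 3 reads with olaparib, and these groups overlapped. Its summed counts of 14 and 3 gave a ratio of 4.41 with a counting interval of 1.23 to 23.9, and replicate 1 of each group held 8 of the 14 and 3 of the 3 reads.

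**Figure D2:**
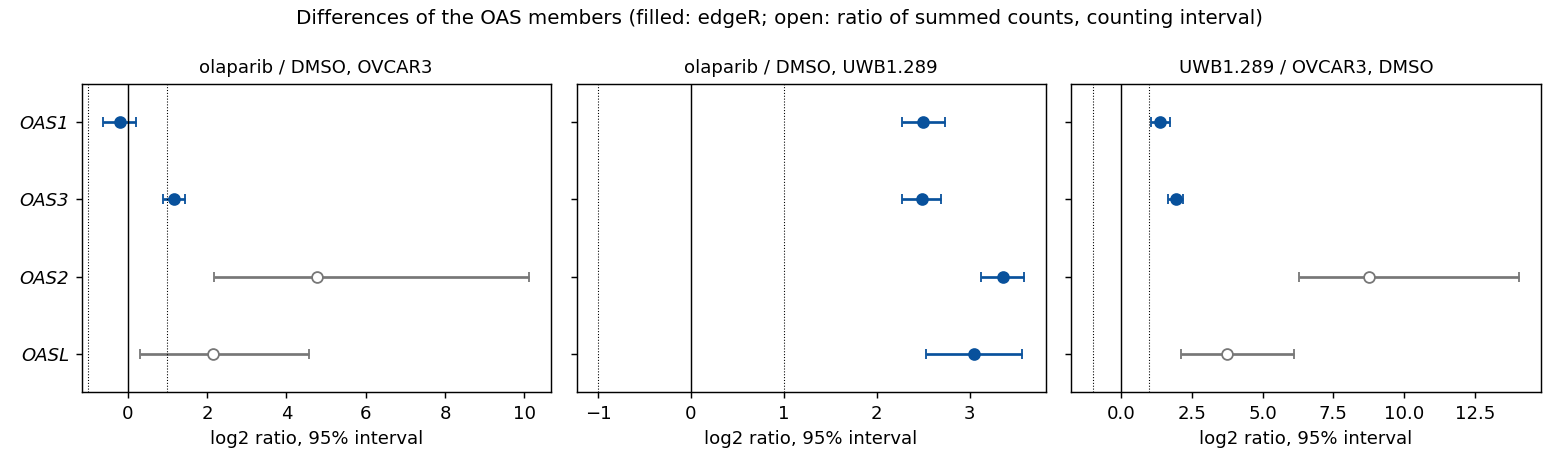
The log2 ratio of each OAS member (rows) with its 95% interval for olaparib against DMSO in OVCAR3, olaparib against DMSO in UWB1.289, and UWB1.289 against OVCAR3 with DMSO (panels, each with its own scale); filled points are edgeR estimates, open points are ratios of summed counts with counting intervals, and dotted lines mark 2-fold. All UWB1.289 olaparib estimates lie above 2-fold, OAS1 in OVCAR3 spans 0, and the open points have the widest intervals.

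Without olaparib, after 96 h with DMSO, the OAS genes were at a higher level in UWB1.289 than in OVCAR3. With DMSO, OAS1 was 2.63-fold and OAS3 3.80-fold higher in UWB1.289, and OAS2, which had 449 reads in UWB1.289, had 1 read in OVCAR3. OAS1 and OAS3, which passed the filter on low counts in both lines, were called higher, where 18.7% of the 13366 genes tested were called higher in UWB1.289. OAS2 passed the filter only through its UWB1.289 libraries, so its call is given as a description. For all 4 members every UWB1.289 library lay above every OVCAR3 library. This was the case for 34.5% of the genes tested, which did not include OASL, so that differences of this kind were common between the lines.

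For OAS1 the log2 difference between the lines with DMSO was 1.39 (SE 0.168, edgeR adjusted p = 1.20e-08), from means of 10.04 ± 2.67 CPM in OVCAR3 and 26.4 ± 4.67 CPM in UWB1.289 (SD, n = 4). For OAS3 the log2 difference was 1.93 (SE 0.131, edgeR adjusted p = 4.63e-14), from 14.1 ± 2.59 and 53.6 ± 8.13 CPM. The call of OAS2 (edgeR adjusted p = 1.93e-16) is a description only, since OAS2 passed the filter through UWB1.289 alone. The ratio of its summed counts was 435 with a counting interval of 77.7 to 17216. OASL did not pass edgeR's filter, with 42 reads in UWB1.289 and 3 in OVCAR3, a ratio of 13.6 with a counting interval of 4.33 to 68.4. Without that filter its log2 difference was 3.77 (DESeq2 adjusted p = 0.000715) or 3.58 (adjusted p = 1.93e-05 in edgeR), with an average count under the limit of 10.

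The levels of OAS3 thus ran from OVCAR3 with DMSO over OVCAR3 with olaparib and UWB1.289 with DMSO to UWB1.289 with olaparib, with no overlap between neighbouring groups. OAS2 followed the same order without overlap. OASL followed it as well, except that both OVCAR3 groups overlapped. OAS1 differed from this order only in OVCAR3, where the olaparib mean of 8.68 ± 1.17 CPM lay below the DMSO mean and the groups overlapped. These orders describe the levels and were not tested.

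Whether olaparib acted differently in the lines was tested as the difference of both log2 fold changes over all 16 libraries. OAS1 and OAS3, which passed the filter on low counts in both lines, were called with a larger response in UWB1.289. Of the 14243 genes tested, 2.0% were called in this direction. OAS2 and OASL did not pass the filter in OVCAR3 and were tested here through their UWB1.289 libraries. For OAS1 the difference of the log2 fold changes was 2.71 (SE 0.214, edgeR adjusted p = 5.44e-10). For OAS3, which rose in both lines, it was 1.32 (SE 0.159, edgeR adjusted p = 1.19e-06). The difference could not be resolved for OAS2 (-0.87, SE 0.824, 95% interval -2.56 to 0.82, edgeR adjusted p = 0.611) or OASL (1.07, SE 1.37, 95% interval -1.74 to 3.88, edgeR adjusted p = 0.736), whose OVCAR3 libraries held few reads.

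The members' shares in the family's reads also differed between the groups, as a description with no test. The share of each member in the summed raw counts of the 4 genes was followed per library. The number of reads per transcript may differ between genes, so a share is not a share of transcripts, and only its difference between groups is described. In UWB1.289 the share of OAS2 was 16.3 to 17.7% with DMSO and 26.1 to 27.9% with olaparib. The share of OAS3 was 51.6 to 56.9% with DMSO and 45.6 to 47.8% with olaparib. Neither pair of ranges overlapped, while those of OAS1 (24.4 to 29.9% and 22.5 to 24.6%) and OASL (1.21 to 2.36% and 1.67 to 2.47%) did.

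In OVCAR3 the share of OAS1 was 49.4, 29.0, 39.7 and 46.4% with DMSO and 22.3, 18.4, 23.3 and 19.1% with olaparib, without overlap. The share of OAS3 was 48.1 to 71.0% with DMSO and 70.0 to 80.4% with olaparib, and these ranges met at DMSO replicate 2. OAS2 made up at most 0.617% of the family's counts in an OVCAR3 DMSO library and 0.784 to 4.76% in the olaparib libraries. The OVCAR3 shares rest on 145 to 168 reads per library with DMSO and 255 to 309 with olaparib, against 508 to 829 and 3284 to 4283 in UWB1.289. The pooled share of OAS1 in OVCAR3 was 41.5% with DMSO (exact 95% binomial interval 37.6 to 45.5%) and 20.8% with olaparib (18.5 to 23.3%), for counting error only. A share depends on the other members too, and here OAS3 rose while a change in the level of OAS1 was not detectable. The family as a whole summed to 24.4 ± 2.40 CPM in OVCAR3 with DMSO and 41.7 ± 1.26 CPM with olaparib, and to 98.5 ± 14.7 and 634 ± 34.2 CPM in UWB1.289 (SD, n = 4).

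**Figure D3:**
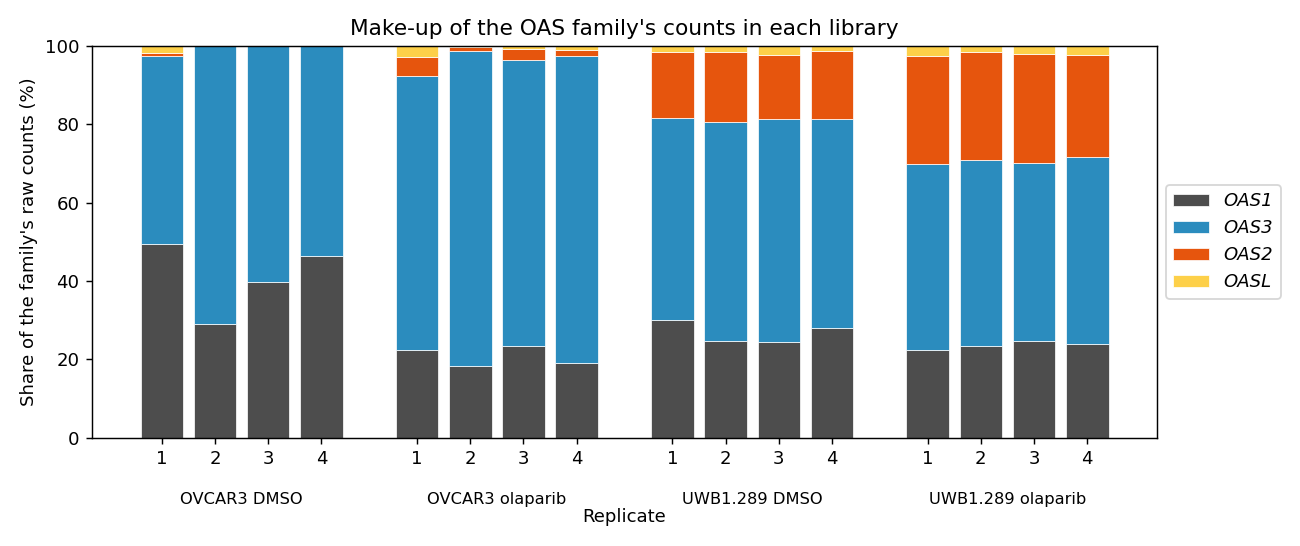
Stacked bars give the share of OAS1, OAS3, OAS2 and OASL in the family's raw counts (percent, from 0 to 100) in each of the 16 libraries, by group and replicate. OAS1 takes a smaller share in all OVCAR3 olaparib libraries than in the DMSO libraries, and OAS2 takes 16.3 to 17.7% in the UWB1.289 DMSO libraries and 26.1 to 27.9% in the olaparib libraries.

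Genes that act around the OAS enzymes were described by 3 lists. Of the 2-5A pathway, 4 genes are given: PDE12 and ENPP1, enzymes that can cleave 2'-5' bonds, AKAP7, an anchoring protein with a related phosphoesterase fold, and ABCE1, a ribosome recycling factor. None of the 4 was called in any of the 4 comparisons with edgeR or with DESeq2. Of all genes tested, 1.93% were called up in UWB1.289, 2.90% in OVCAR3, and 2.0% with a larger response in UWB1.289. Between the lines with DMSO, 18.7% were called higher and 19.7% lower. At such shares, a list of 4 genes with none called is not set apart from other genes. AKAP7 was the only gene of the list with an unadjusted edgeR p below 0.05, in the comparison between the lines with DMSO. Its log2 difference there was 0.71 (SE 0.212, edgeR adjusted p = 0.0034). With olaparib in UWB1.289 the log2 fold changes were 0.07 for ABCE1, 0.21 for PDE12, -0.06 for AKAP7 and 0.21 for ENPP1, with a median of 0.14. In OVCAR3 they were 0.15, 0.13, -0.04 and 0.16, with a median of 0.14.

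The second list holds 8 genes of double-stranded RNA sensing. In UWB1.289 with olaparib, 2 of 5 tested were called, both up, where 1.93% of all genes tested were. IFIH1, which encodes the sensor MDA5, ranged over 26.7 to 36.7 CPM with DMSO and 91.1 to 130 CPM with olaparib (log2 fold change 1.80, SE 0.118, edgeR adjusted p = 1.98e-10). DHX58, which encodes the regulator LGP2, ranged over 2.26 to 3.35 CPM with DMSO and 5.52 to 7.82 CPM with olaparib (log2 fold change 1.31, SE 0.245, edgeR adjusted p = 0.000992). The groups did not overlap for either gene. EIF2AK2, the kinase PKR, which like the OAS enzymes is activated by double-stranded RNA, passed the p threshold with a change smaller than 2-fold (log2 fold change 0.89, SE 0.0868, edgeR adjusted p = 1.55e-07), as did ADAR (0.71, SE 0.0814, edgeR adjusted p = 2.14e-06), an RNA editing enzyme that was named after its values were seen.

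In OVCAR3 none of the 6 genes tested was called with edgeR or with DESeq2, where 2.90% of all genes tested were called up. An unadjusted edgeR p below 0.05 was found for 0 of the 6, against 35.8% of all genes tested. The log2 fold changes there ran from -0.98 to 0.11, with 0.04 for IFIH1, -0.42 for DHX58 and 0.11 for EIF2AK2. The lowest was that of TLR3 (SE 0.529, edgeR adjusted p = 0.192). ZBP1 fell without overlap from 31 reads with DMSO to 8 with olaparib over the OVCAR3 libraries, too few to pass edgeR's filter. In UWB1.289 it had 8 reads with DMSO, all in the same library, and 53 with olaparib, and these groups overlapped. The difference of its response between the lines was 4.74 (SE 1.09, edgeR adjusted p = 0.00524). It was not called, at an average count of 6.33, under the limit of 10. TLR3 and ZBP1 were named after their values were seen. The median of the list was 0.89 in UWB1.289 and 0.04 in OVCAR3. The response of IFIH1 (difference 1.75, SE 0.239, edgeR adjusted p = 8.83e-06) and DHX58 (1.73, SE 0.418, edgeR adjusted p = 0.00778) was larger in UWB1.289. Between the lines with DMSO, EIF2AK2 (log2 difference 1.14) and IFIH1 (2.77) were called higher in UWB1.289, as were 18.7% of all genes tested. DESeq2 called 3 genes of the list in this comparison. It placed TLR3 lower in UWB1.289 (log2 difference -1.83, DESeq2 adjusted p = 0.00781). DDX58, which encodes RIG-I, was singled out after its values were seen, since it had 11 and 5 reads over the OVCAR3 DMSO and olaparib libraries and 0 and 2 over those of UWB1.289, too few to pass edgeR's filter. DESeq2 gave it a log2 difference of -3.93 between the lines with DMSO (DESeq2 adjusted p = 0.0297), at an average count under the limit of 10.

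The third list gives 11 genes of the interferon signal, of which 9 were tested. The ligand gene IFNB1 had 1 read in all 16 libraries together, in OVCAR3 with olaparib. A count of 0 in a group allows up to 3 reads, and at this depth no difference in IFNB1 was detectable. The ligand gene IFNL1, named after its values were seen, had 4 reads with DMSO and 6 with olaparib in OVCAR3. In UWB1.289 it had 3 with DMSO and 14 with olaparib, 9 of them in the same library, and it did not pass edgeR's filter. In UWB1.289 with olaparib, 2 of 9 were called, where 1.93% of all genes tested were called up, and both rose and encode transcription factors: IRF7, whose log2 fold change was 1.65 with an SE of 0.121 (edgeR adjusted p = 1.22e-09) and IRF1, for which it was 1.42 with an SE of 0.130 (edgeR adjusted p = 5.35e-08). IRF9, a transcription factor of the interferon response, came to 0.97 (SE 0.161, edgeR adjusted p = 0.000277), just inside 2-fold. IRF3, which is activated by phosphorylation downstream of RNA and DNA sensors, came to -0.20 (SE 0.105, edgeR adjusted p = 0.261).

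In OVCAR3 none of these genes was called with edgeR or with DESeq2, where 2.90% of all genes tested were called up. Of the 9 tested, 7 had an unadjusted edgeR p below 0.05, as 35.8% of all genes tested had. The same number passed an adjusted p of 0.1 in edgeR, as 31.5% of all genes did, with changes smaller than 2-fold. The largest log2 fold changes were those of IRF7 at 0.77 (SE 0.168, edgeR adjusted p = 0.002) and of IRF1 at 0.72 (SE 0.110, edgeR adjusted p = 6.34e-05). The median of the genes given was 0.55 in OVCAR3 and 0.43 in UWB1.289, against medians of -0.012 and -0.0044 over all genes tested. For a different response between the lines none of the 9 was called with edgeR or with DESeq2. Of all genes tested, 2.0% were called with a larger response in UWB1.289. Of the 9 signal genes, 6 had an unadjusted edgeR p below 0.05, as 20.9% of all genes tested had.

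Between the lines with DMSO the signal genes went both ways. IRF9 (log2 difference 1.14) and IRF3 (1.89) were called higher in UWB1.289, and the receptor genes IFNAR1 (-1.42) and IFNAR2 (-1.66) and the factor IRF1 (-1.27) were called lower, where 18.7% of all genes tested were called higher and 19.7% lower.

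**Figure D4:**
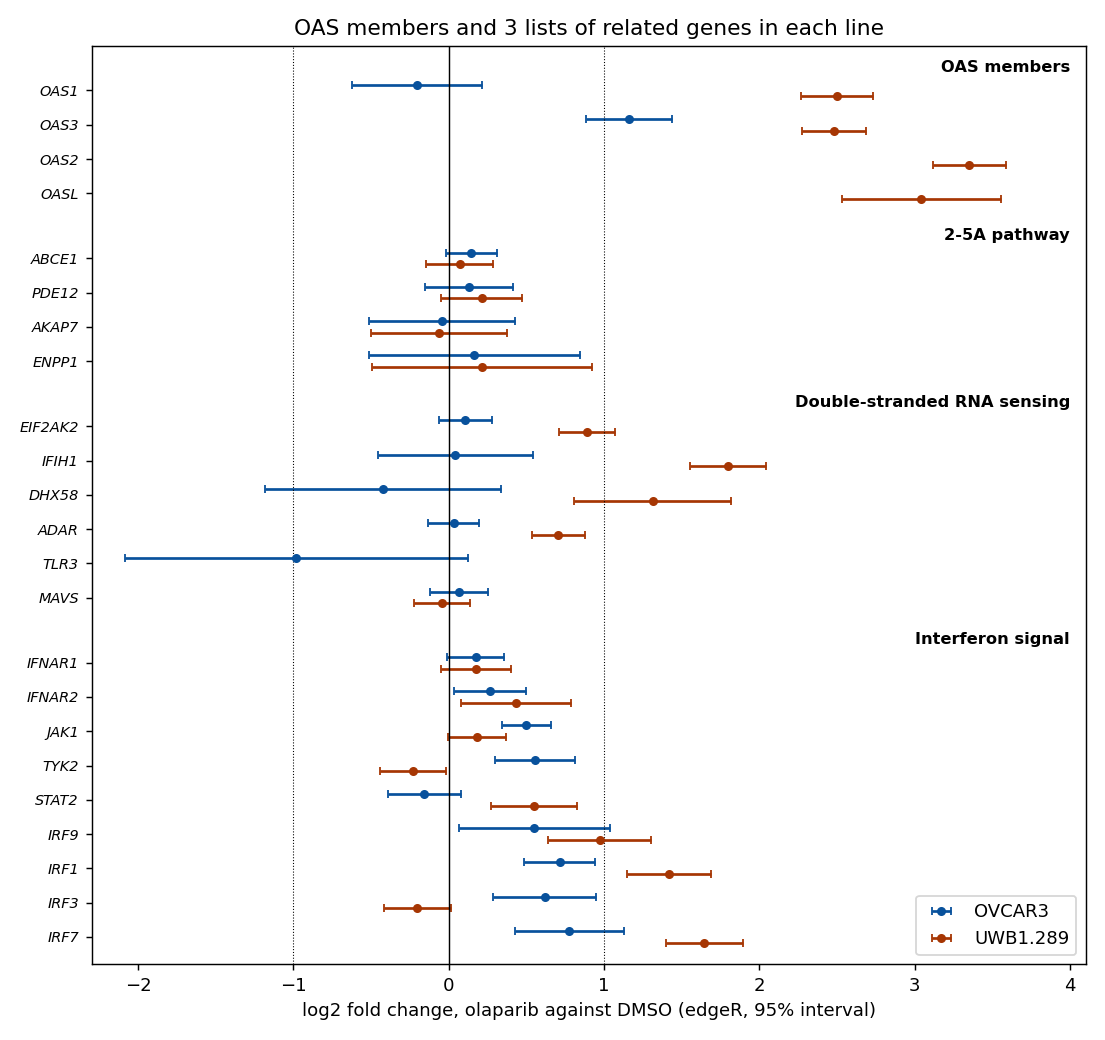
Log2 fold change with its 95% interval (edgeR) for olaparib against DMSO in OVCAR3 (blue) and UWB1.289 (brown) for the OAS members and the tested genes of 3 lists; dotted lines mark 2-fold, and a gene without a point in a line was not tested there. The OAS members of UWB1.289 lie between 2.48 and 3.35, and the 2-5A pathway genes lie near 0 in both lines.

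Protein-coding genes around the members on chromosome 12 were described to see whether the response extended along the chromosome. On the sides of the OAS1, OAS3 and OAS2 cluster these are RPH3A and PTPN11, then DTX1 and RASAL1, and beside OASL P2RX7 and P2RX4 are given. None of the 6 was called with olaparib in either line with edgeR or with DESeq2. Of all genes tested, 1.93% were called up in UWB1.289 and 2.90% in OVCAR3. With so low a share called, these few genes cannot show whether the response extended along the chromosome. Of the 4 neighbours tested in UWB1.289, 0 had an unadjusted edgeR p below 0.05. Of the 3 tested in OVCAR3, 2 did, where 35.8% of all genes tested in that line did. RPH3A, which ends 6975 bases before OAS1, had 1 read in all. The log2 fold changes in UWB1.289 were -0.12 for PTPN11, -0.28 for RASAL1, 0.99 for P2RX7 (SE 0.496, edgeR adjusted p = 0.239) and 0.05 for P2RX4. In OVCAR3, PTPN11 (0.39, edgeR adjusted p = 0.0011) and RASAL1 (-0.61, edgeR adjusted p = 0.0889) passed the p threshold with changes smaller than 2-fold. DTX1 had at most 15 reads in a library and did not pass edgeR's filter within a line. Between the lines RASAL1 was called higher in UWB1.289 (log2 difference 2.0), as were 18.7% of all genes tested.

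The genes most like each member over the 16 libraries were found by the root mean square (RMS) difference of log2 CPM after centring each gene on its mean, among 13234 genes. OAS3 was closest to ISG15, a ubiquitin-like protein encoded by an interferon-stimulated gene, with an RMS of 0.188, then to IFI44 (0.437) and IFIT2 (0.449). OAS1 was closest to B3GNT7 (0.426), a glycosyltransferase gene, ISG15 (0.445) and IFI44L (0.485). OASL was closest to ISG15 (0.561), OAS3 (0.627) and OAS1 (0.636). Both OASL and OAS2 had few reads in OVCAR3, so their log2 CPM there depends strongly on the prior count of 2 added before taking logs. OAS2 was less like any gene, with XAF1 at 0.671, CXCL5 at 0.856 and PDZK1IP1 at 0.857, and its RMS to the other members was 1.66 to 2.01. The libraries of a line share that line's level, so a small RMS reflects the difference between the lines as well as the response to olaparib.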

How the data were processed

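RNA of OVCAR3 and UWB1.289 was prepared with a QuantSeq 3' kit. The authors trimmed the reads, aligned them to hg38 with STAR (2.7.9a in the submitters' processing notes) and counted them per gene with featureCounts 2.0.0 and GENCODE 38. The deposited values are raw counts for 59428 genes, not normalized. Coordinates are from GENCODE 44 and promoters from RefSeq (GRCh38.p14), which held OAS1 and OAS3 of the members.

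Tests ran in edgeR 4.0.16 under R 4.3.3 (TMM, filterByExpr, quasi-likelihood test, Benjamini-Hochberg adjustment over all genes tested), in each line, between the DMSO groups, and as an interaction over all 16 libraries. The limits on adjusted p and fold change are those the authors set for DESeq2, and DESeq2 1.42.0 was an alternative here, beside other size factors, filters, thresholds, all 16 libraries in the fit, a replicate block and leaving out each library. Each SE follows from the estimate and its F statistic. Total counts of 5599571 to 7730228 per library leave genes near 10 counts with a large counting error. CPM used TMM factors over all libraries, and log2 CPM a prior count of 2. Of 24 pairs of libraries within groups, 0 were identical. The tests were run on simulated data first.

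Same-numbered DMSO and olaparib libraries of UWB1.289 deviated together (correlations 0.137 to 0.225 over 9542 genes, against at most 0.152 for other numbers, with 3 of 4 highest for their own number), each over the 0.1 taken to mark pairs. The values given are from the fit without a block, and a block was an alternative. Named genes were all members, the 2-5A genes, the genes of the other lists called in any comparison, IFNB1 and IRF3, neighbouring genes on the chromosome and the 3 genes most like each member. The members and lists were chosen with earlier results of these data known. RIG-I is listed as DDX58. Results for some genes of these lists are not reported here.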

Additional observations from a re-analysis of the deposited data

Results flagged for a closer look

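In OVCAR3 with DMSO, 3 members had 1 library apart from the other 3 by Dixon's criterion, out of 16 groups of 4 libraries examined. OAS3 in replicate 2 was at 18.0 CPM, against 12.7 to 12.9 CPM in the others, and chance marks about 1 in 20 groups in this way. OAS2 in replicate 1 was at 0.165 CPM, which is 1 read, and OASL in the same replicate was at 0.496 CPM, which is 3 reads, with 0 reads in the other libraries, so that any read there would stand apart and the chance rate does not apply.

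The response to olaparib differed between the lines by the interaction test for OAS1 (2.71 on the log2 scale), OAS3 (1.32), IFIH1 (1.75) and DHX58 (1.73), each larger in UWB1.289. OAS1 lay lower with olaparib than with DMSO in OVCAR3 without passing the test, and the line, its BRCA1 status, the dose and the medium cannot be told apart.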

How the results depend on the processing

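The counts of members called in this section include OASL in UWB1.289 and OAS2 between the lines. Each of these passed the filter on low counts through the group where it was high, so neither call adds weight here. The number of members called stayed at 4 in UWB1.289, 1 in OVCAR3, 3 between the lines and 2 for the interaction under every setting tried, with these exceptions. With all 16 libraries in the fit, 2 members were called in OVCAR3, since OAS2 (log2 fold change 4.22, edgeR adjusted p = 0.000297) then had an average count above 10 through its UWB1.289 libraries, and 4 were called between the lines, OASL among them. With an average count above 50, OASL was no longer called in UWB1.289, which left 3. Leaving out each library in turn changed none of the 4 counts. The difference of the OASL response between the lines, which was not called, ranged from -1.76 to 1.86 when 1 library was left out, against 1.07, and turned only without OVCAR3 DMSO replicate 1, the library that held all its OVCAR3 DMSO reads. That of OAS2, not called either, ranged from -2.48 (without the same library) to -0.41, against -0.87.

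The replicate block left the counts of members called at 4 in UWB1.289, 1 in OVCAR3, 3 between the lines and 2 for the interaction and changed no call of a member. In OVCAR3 the correlations of same-numbered libraries were 0.0324 to 0.167, and 2 of 4 libraries correlated best with their own number. The log2 fold change of OAS3 in OVCAR3 ranged from 1.11 to 1.290 over all settings, and that of OAS1 from -0.33 to -0.05 (adjusted p 0.271 to 0.895). With DESeq2, OAS2 in OVCAR3 came to 4.51 (adjusted p = 0.00526) and was not called because of its average count. Without the limit on fold change, the list of the interferon signal had 7 genes called in OVCAR3, 4 in UWB1.289, 9 between the lines and 6 for the interaction, the list of double-stranded RNA sensing had 4 in UWB1.289, between the lines and for the interaction, and the 2-5A list had 1 between the lines. Depth limits OAS2 and OASL in OVCAR3, where few reads remain. A comparison of the proteins was not run.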
